A study of Homo sapiens with 8 samples.

Results

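In BT549 cells kept from attaching, 7 genes are described whose products are secreted (CHI3L1, SCG2, STC1, SNED1) or sit in a membrane (SCARA5, CA12, SEL1L3). They are 7 of the 18417 genes measured, and each had 1 probe set that names it alone. They were chosen as large rises in the mean of 4 suspended minus the mean of 4 attached arrays, so that difference is given as a description without a test. The suspended cultures grew for 24 h on dishes with a coat of poly-HEMA, which cells cannot grip. The attached cultures grew on ordinary tissue culture plates, for 24 h in one field of the labels and 48 h in another, so attachment and length of culture cannot be told apart. Both groups were the untreated human line BT549, a triple-negative breast cancer line, in RPMI with 10% serum and insulin, with 4 biological replicates each. The replicates come from 1 line, so their spread says nothing of other tumours.

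CHI3L1 (also called YKL-40) belongs to the chitinase family but has lost the enzyme activity, and macrophages, chondrocytes and several tumour types release it. SCG2 is a granin, a cargo protein of dense-core secretory vesicles, and is cut into peptides that include secretoneurin. STC1 is a glycoprotein hormone that inhibits the protease PAPP-A, and SNED1 is a matrix glycoprotein with a nidogen-like domain. SCARA5 is a class A scavenger receptor that takes up ferritin, as shown in mice. CA12 is a carbonic anhydrase whose active site faces outwards and which in breast tumours goes with the oestrogen receptor. SEL1L3 is a membrane protein with SEL1-like repeats, and its function is little known.

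The arrays had medians of 6.03 to 6.07 in suspended and 6.02 to 6.06 in attached samples, in log2 signal, and their number limits the precision. Arrays correlated at r = 0.993 to 0.996 among suspended samples, 0.995 to 0.996 among attached samples and 0.987 to 0.994 between the groups, over all 33297 probe sets, and 0 pairs held identical values. ESR1 and PGR, 2 of the receptor genes that define the triple-negative type, had means of 5.11 and 4.31 in suspended and 5.04 and 4.19 in attached cells, both under 5.28, the 25th percentile of gene means. ERBB2, the third, averaged 7.53 in suspended and 7.48 in attached cells, above that level. VIM, the mesenchymal filament gene, averaged 11.66 in suspended and 11.73 in attached cells, while the epithelial cadherin gene CDH1 averaged 4.26 in suspended and 4.19 in attached cells. By the probe set used for each gene, the other epithelial markers read stood higher than CDH1. In suspended and attached cells EPCAM averaged 5.35 and 5.47, KRT8 6.37 and 6.42, and KRT18 8.13 and 8.16. Another probe set of EPCAM averaged 4.35 in suspended and 4.27 in attached cells, close to CDH1. No detection call was used here, so a low signal says nothing on presence.

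CHI3L1 signal was 3.97 times as high in suspended as in attached cells. It measured 8.21, 8.54, 8.37 and 8.53 in suspended cells (log2 signal, replicates 1 to 4), against 6.26, 6.70, 6.45 and 6.29 in attached cells. Every suspended value lay above every attached one, with a gap of 1.51 between the lowest suspended and the highest attached array. The mean difference was 1.99 on the log2 scale, with 8.42 ± 0.16 in suspended and 6.43 ± 0.20 in attached cells (SD, n = 4 each), and it was the third in size over all genes. CHI3L1 also had the widest spread of the 7 genes, and attached replicate 2 stood highest in its group. Its promoter is the only one of those shown here with a TATA box, given in capitals in the gene's own orientation, 5′ to 3′, at chr1:203186655-203186954, minus strand (RefSeq, GRCh38.p14, from 250 bases before to 50 after the start).
CHI3L1: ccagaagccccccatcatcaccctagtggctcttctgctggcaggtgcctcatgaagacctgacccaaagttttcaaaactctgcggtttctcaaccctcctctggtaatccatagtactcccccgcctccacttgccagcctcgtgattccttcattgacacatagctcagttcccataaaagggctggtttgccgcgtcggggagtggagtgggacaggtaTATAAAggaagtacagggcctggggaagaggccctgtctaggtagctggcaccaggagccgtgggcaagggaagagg
The TATA box (TATAAA) begins 27 bases before the annotated start, and 11.5% of 35116 RefSeq promoter windows of this length hold these letters on either strand.

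SCG2 followed a similar course. Its signal was 7.43, 7.63, 7.40 and 7.62 in suspended cells, against 5.66, 5.77, 5.89 and 5.55 in attached cells (log2, replicates 1 to 4). The groups were again apart, by 1.51, and the mean difference was 1.80 (7.52 ± 0.12 in suspended and 5.72 ± 0.15 in attached cells, SD, n = 4 each), or 3.49-fold. Suspended replicates 2 and 4 stood above replicates 1 and 3, as they did for CHI3L1.

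STC1 had signals of 10.62, 10.72, 10.58 and 10.68 in suspended cells, against 9.11, 9.25, 9.22 and 9.27 in attached cells (log2, replicates 1 to 4). The replicates lay close together and the groups were 1.30 apart. The mean difference was 1.44, or 2.71-fold (10.65 ± 0.06 in suspended and 9.21 ± 0.07 in attached cells, SD, n = 4 each). The spread within groups was the smallest of the 7 genes.

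SNED1 measured 7.07, 7.34, 7.19 and 7.26 in suspended cells, against 5.68, 6.00, 5.95 and 5.69 in attached cells (log2, replicates 1 to 4). The attached arrays fell in pairs, replicates 2 and 3 above replicates 1 and 4, and all lay at least 1.07 below the suspended ones. The mean difference was 1.39, or 2.62-fold (7.22 ± 0.11 in suspended and 5.83 ± 0.17 in attached cells, SD, n = 4 each). The promoter of SNED1 is shown as the richest in GC boxes of those here, at chr2:240998368-240998667, plus strand (RefSeq, GRCh38.p14). Capitals mark 4 GC boxes (GGGCGG on either strand) and 1 xenobiotic response element core (GCGTG on either strand).
SNED1: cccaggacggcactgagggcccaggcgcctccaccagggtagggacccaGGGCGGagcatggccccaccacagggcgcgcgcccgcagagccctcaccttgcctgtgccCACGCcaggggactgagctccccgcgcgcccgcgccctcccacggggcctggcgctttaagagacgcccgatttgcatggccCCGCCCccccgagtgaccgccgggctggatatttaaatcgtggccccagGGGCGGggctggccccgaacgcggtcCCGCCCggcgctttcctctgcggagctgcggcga
It has 74.3% G and C, more than 89.0% of all windows, and no TATAAA within these letters.

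SCARA5 signal was 7.72, 7.63, 7.79 and 7.78 in suspended cells, against 6.35, 6.47, 6.45 and 6.28 in attached cells (log2, replicates 1 to 4). The groups lay 1.15 apart. The mean difference of 1.34, or 2.53-fold, stood on 7.73 ± 0.07 in suspended and 6.39 ± 0.09 in attached cells (SD, n = 4 each). Here suspended replicate 2 was the lowest of its group, whereas it was the highest for CHI3L1, SCG2, STC1 and SNED1.

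CA12 signal was 9.63, 9.70, 9.67 and 9.72 in suspended cells, against 8.42, 8.46, 8.23 and 8.49 in attached cells (log2, replicates 1 to 4). The suspended arrays spanned less than the attached ones, where replicate 3 was the lowest. With 9.68 ± 0.04 in suspended and 8.40 ± 0.12 in attached cells (SD, n = 4 each), the mean difference was 1.28, or 2.43-fold. Its promoter lies at chr15:63381797-63382096, minus strand (RefSeq, GRCh38.p14), and is shown for comparison with that of CHI3L1. Capitals mark 1 GC box and 2 xenobiotic response element cores.
CA12: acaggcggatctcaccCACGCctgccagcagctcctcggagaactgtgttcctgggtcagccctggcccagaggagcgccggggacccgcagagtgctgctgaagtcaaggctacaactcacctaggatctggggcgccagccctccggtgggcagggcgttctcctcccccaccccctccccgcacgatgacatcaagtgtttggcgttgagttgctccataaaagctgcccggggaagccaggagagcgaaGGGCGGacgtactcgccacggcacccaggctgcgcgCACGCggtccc
The window holds 22 CG pairs, against 7 in that of CHI3L1 and a median of 14 over all windows.

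SEL1L3 measured 6.61, 6.49, 6.60 and 6.49 in suspended cells, against 5.15, 5.19, 5.17 and 4.92 in attached cells (log2, replicates 1 to 4). Attached replicate 4 stood apart below the others, and the groups were separated by 1.30. The mean difference was 1.44, or 2.71-fold (6.55 ± 0.07 in suspended and 5.11 ± 0.12 in attached cells, SD, n = 4 each), and it was 1.38 without attached replicate 4. The attached mean lies under 5.28, and no background was measured there, which leaves the size of its difference uncertain. RefSeq gives SEL1L3 2 starts, both on the minus strand (GRCh38.p14), whose windows differ in composition and are shown for that reason. The outer one, at chr4:25863517-25863816, has 63.0% G and C, with 1 CCAAT box and 1 hypoxia response element core (ACGTG on either strand) in capitals. The inner one, at chr4:25862939-25863238, has 83.0%, more than 99.2% of all windows, with 3 GC boxes and 1 xenobiotic response element core in capitals.
SEL1L3 outer start: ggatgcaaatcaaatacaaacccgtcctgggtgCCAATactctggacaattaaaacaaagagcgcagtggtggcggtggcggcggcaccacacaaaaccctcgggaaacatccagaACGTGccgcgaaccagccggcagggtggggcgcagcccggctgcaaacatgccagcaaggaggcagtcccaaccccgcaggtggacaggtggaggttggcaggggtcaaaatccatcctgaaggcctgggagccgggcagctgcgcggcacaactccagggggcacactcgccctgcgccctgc
SEL1L3 inner start: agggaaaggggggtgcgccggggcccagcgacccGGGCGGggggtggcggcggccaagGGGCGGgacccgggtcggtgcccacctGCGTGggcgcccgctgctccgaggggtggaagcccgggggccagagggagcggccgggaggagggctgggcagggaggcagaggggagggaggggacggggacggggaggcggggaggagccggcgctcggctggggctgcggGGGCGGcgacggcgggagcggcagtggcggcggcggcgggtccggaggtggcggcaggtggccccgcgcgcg
The single probe set of SEL1L3 does not tell the 2 starts apart in these values.

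Promoter sequences were searched for 4 of the 7 genes (CHI3L1, SNED1, CA12 and SEL1L3), with 5 windows in all. Windows on the chromosome that carries STC1 and SCARA5 were left out of this search, so those genes were not examined. SCG2 had no entry among the promoter sequences. Besides the motifs spelled out above, the CCAAT box, the AP-1 site (TGANTCA) and the core of the cyclic AMP response element (TGACGT) were searched on both strands. No motif was found in all 5 windows. The AP-1 and cyclic AMP motifs were found in 0 of the 5, and occur in 7.71% and 7.98% of all windows. GC boxes were found in the windows of SNED1, CA12 and the inner start of SEL1L3, against 45.0% of all windows, and xenobiotic cores in the same 3, against 36.5%. The CCAAT box and the hypoxia core, both in the outer SEL1L3 window, occur in 34.6% and 21.4% of all windows. The motifs marked in capitals did not overlap each other. A match is a description of the letters and not of binding.

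**Figure D1:**
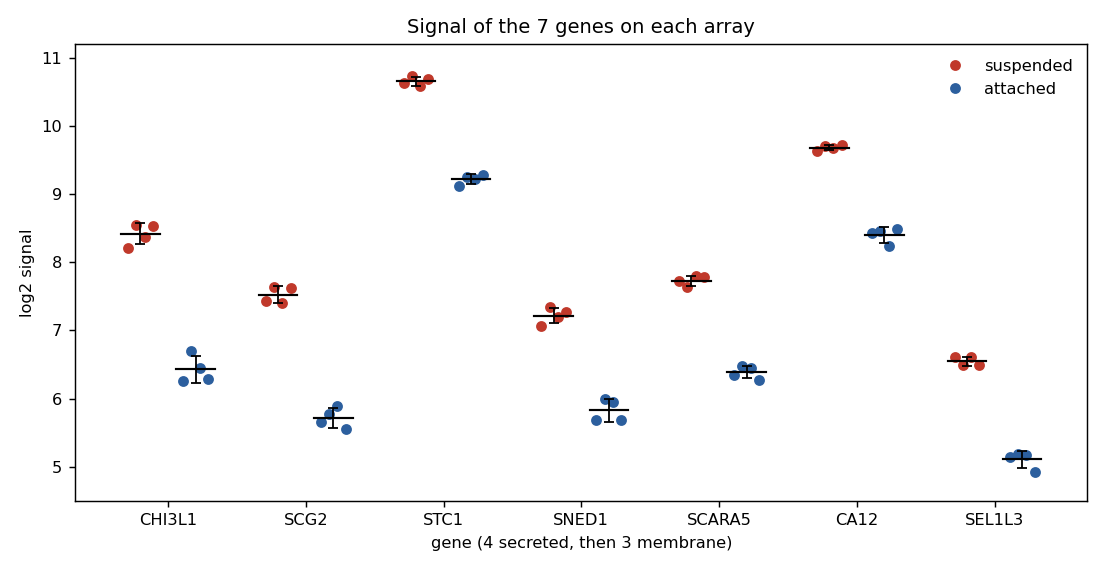
Log2 signal (y axis) of CHI3L1, SCG2, STC1, SNED1, SCARA5, CA12 and SEL1L3 (x axis) on 4 suspended (red) and 4 attached (blue) arrays; points are arrays, lines the group means and bars the SD. In each gene the suspended points lie above the attached ones, by gaps of 1.07 (SNED1) to 1.51 (SCG2); heights are not comparable between genes, since each rests on its own probe set.

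For all 7 genes the 4 suspended values lay above the 4 attached ones. That order was shared by 12.7% of all tested genes, and at least a 2-fold higher mean by 0.233% (43 genes), but the 7 were chosen on this contrast and nothing is read from either count. In order of mean difference over all genes CHI3L1 was the third and CA12 the fifteenth. The choice was not a cut in this order: 8 genes with larger differences than CA12, among them TDO2 (2.63) and TNFRSF11B (2.07), the only ones above CHI3L1, were not chosen. The genes next below CA12, at 1.28, were ITGA2, an integrin subunit gene, at 1.28, GEM, a small GTPase gene, at 1.26 and GRAMD1B, a sterol transporter gene, at 1.26. The median difference of the 7 genes was 1.44 and that of all genes 0.02. In bulk samples like these, a change in the share of cells that make a transcript and a change in the amount per cell cannot be told apart.

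**Figure D2:**
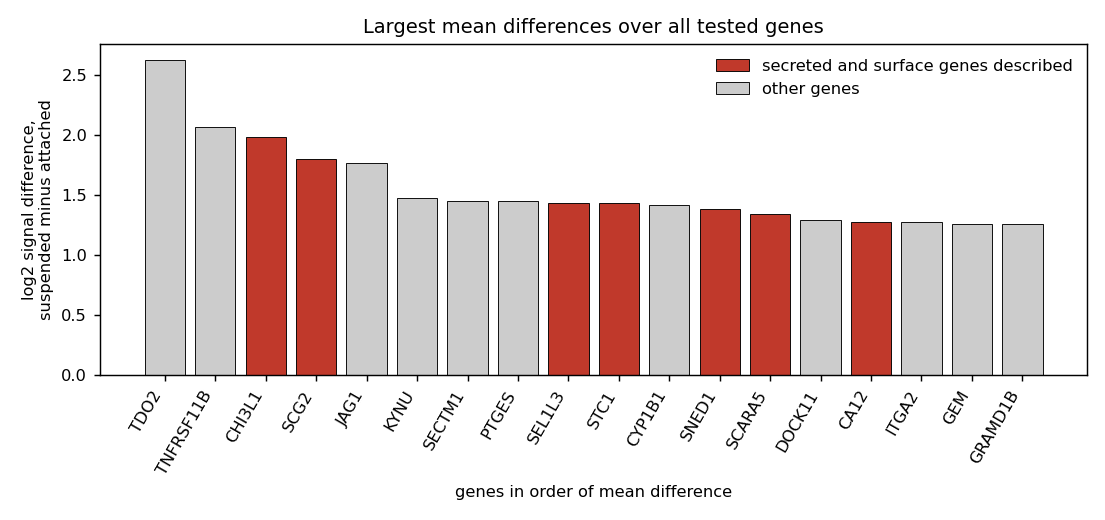
Mean log2 signal difference, suspended minus attached (y axis), of the 18 genes with the largest differences in order (x axis); red bars are the 7 genes described and grey bars other genes. CHI3L1 (1.99) and SCG2 (1.80) stand apart from the other 5 described genes, which lie between 1.28 and 1.44.

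The 7 genes did not vary together within the groups in a single way. For CHI3L1, SCG2, STC1, SNED1 and CA12, suspended replicates 2 and 4 lay above the group mean and replicates 1 and 3 below it, an arrangement found in 8.70% of all genes. SEL1L3 showed the opposite arrangement, found in 8.62% of all genes. Attached replicate 2 lay above its group mean for 7 of 7, as it did for 57.3% of all genes. The mean deviation of all genes on an array lay between -0.02 and 0.01. CHI3L1 had the largest single deviation of the 7 genes, 0.28 on attached replicate 2.

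The spread between attached arrays exceeded that between suspended arrays for 7 of the 7 genes, whereas over all genes this held for 39.8%. The SD of the 7 genes was 0.04 to 0.16 in suspended cells (median 0.07) and 0.07 to 0.20 in attached cells (median 0.12). Over all genes the median SD was 0.09 in suspended and 0.07 in attached cells. The 7 genes share the same 8 arrays, so these counts are a description.

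**Figure D3:**
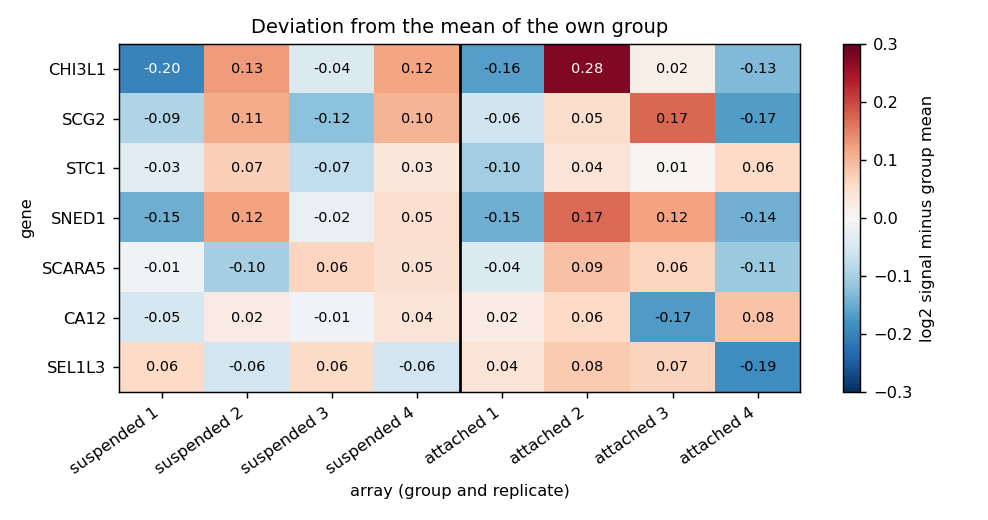
Log2 signal minus the mean of the array's own group (colour and printed number) for the 7 genes (rows) on the 4 suspended and, right of the line, 4 attached arrays (columns). CHI3L1 spans from -0.20 on suspended replicate 1 to 0.28 on attached replicate 2, whereas STC1 stays between -0.10 and 0.07.

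The genes whose course over the 8 arrays was nearest to each of the 7 were found by the root mean square difference of log2 signals after each gene was centred on its own mean. STC1 had the closest neighbour, PTGES, a prostaglandin E synthase gene, at 0.03, and then CYP1B1, a monooxygenase gene, at 0.06. CYP1B1 was also the second nearest of SNED1 (0.10) and SEL1L3 (0.09), and the nearest of SNED1 was SECTM1, a secreted and transmembrane protein gene, at 0.09. SCARA5 and SEL1L3 were each other's nearest gene out of 18417 at 0.08, and the second nearest of SCARA5 was the receptor gene TNFRSF19, also at 0.08. For CA12 they were DOCK11, a guanine nucleotide exchange factor gene, at 0.07 and SNAI2, a mesenchymal transcription factor gene, at 0.08. CHI3L1 and SCG2 were each the second nearest of the other at 0.15, after TNFRSF11B, the decoy receptor osteoprotegerin, for CHI3L1 (0.14) and the Notch ligand gene JAG1 for SCG2 (0.14). The measure weighs the size of the group difference most, which also chose the 7 genes.

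Relatives of the 7 genes were tested with limma over all 18417 genes (Benjamini-Hochberg adjusted p under 0.05), where 10.4% of genes passed as higher and 10.2% as lower in suspended cells. Of 36 measured relatives by protein family, 7 rose and 0 fell, and their median difference was 0.07 against 0.02 for all genes. Of the 36, 11 averaged under 5.28, the 25th percentile of gene means, in both groups, where signal over background could not be assessed. At an unadjusted p under 0.05 the counts were also 7 and 0, where 3234 of all 18417 genes were higher and 2745 lower. The lowest of the 36 differences was -0.19 and the highest 0.55, below the smallest of the 7 genes, 1.28. The 7 were chosen for large differences, so nothing is read from that gap. The wider lists of relatives, binding partners and pathway genes were chosen with earlier results of these data known, and no set test was run. Of the 104 measured genes in these wider lists, 21 rose and 4 fell, with a median of 0.07. The number that fell was 2 without suspended replicate 1 or attached replicate 2, 3 or 4.

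**Figure D4:**
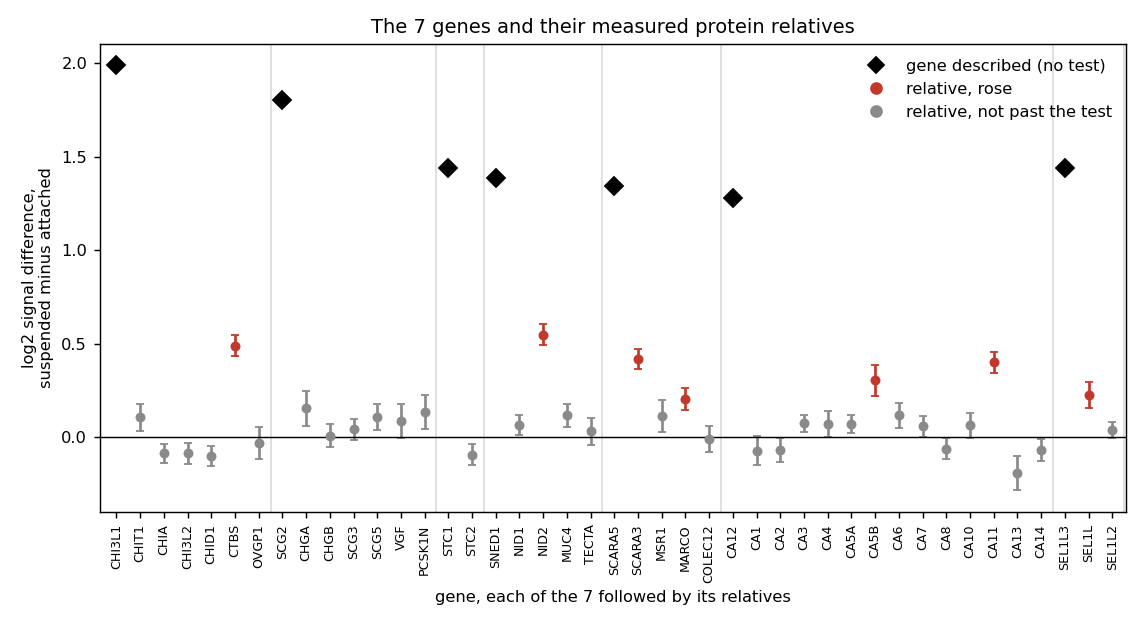
Log2 signal difference, suspended minus attached (y axis), of each of the 7 genes (black diamonds, no test) followed by its measured protein relatives (x axis; red, rose; grey, not past the test; bars are the SE from limma). The relatives lie between -0.19 (CA13) and 0.55 (NID2), and the diamonds between 1.28 (CA12) and 1.99 (CHI3L1). The 7 genes were chosen for large differences, so nothing is read from their distance to the relatives.

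In the chitinase family of CHI3L1, the chitobiase gene CTBS, which acts in lysosomal breakdown of glycoprotein sugars, rose by 0.49 on the log2 scale (SE 0.057, adjusted p = 0.000101). CTBS averaged 7.33 ± 0.04 in suspended and 6.84 ± 0.10 in attached cells (SD, n = 4 each), and the groups did not overlap. The active chitinases CHIT1 (0.11) and CHIA (-0.09) and the chitinase-like CHI3L2 (-0.09), CHID1 (-0.10) and OVGP1 (-0.03) were not past the test. Among proteins reported to bind CHI3L1, the galectin gene LGALS3 rose by 0.51 (adjusted p = 0.000256) and CD44, the hyaluronan receptor gene, by 0.22 (adjusted p = 0.00378). The receptor gene IL13RA2 differed by -0.03 (adjusted p = 0.856). TMEM219, which encodes a partner of that receptor, differed by 0.14 (adjusted p = 0.122) and was past the test without suspended replicate 3 (0.19). In all, 3 of 13 rose and 0 fell, against 10.4% and 10.2% of all genes. At an unadjusted p under 0.05 the counts were 4 and 0, where 3234 of all 18417 genes were higher and 2745 lower.

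None of the 6 measured granin relatives of SCG2 was past the test by limma, and 0 reached an unadjusted p under 0.05. CHGA, SCG3 and SCG5 averaged under 5.28, the 25th percentile of gene means, in both groups, where signal over background could not be assessed. The differences were 0.16 for CHGA, 0.01 for CHGB, 0.04 for SCG3, 0.11 for SCG5, 0.09 for VGF and 0.14 for PCSK1N. Among the machinery of dense-core vesicles, the calcium sensor gene SYT1 rose by 0.62 (SE 0.062, adjusted p = 3.64e-05), with 7.08 ± 0.12 in suspended and 6.46 ± 0.04 in attached cells (SD, n = 4 each). PAM, the peptide amidating enzyme gene, rose by 0.26 (adjusted p = 0.00212), and CPE, the carboxypeptidase gene that trims prohormones, by 0.17 (adjusted p = 0.0472). CPE was past the test in only 2 of the 8 refits that left out 1 array, those without suspended replicate 2 or attached replicate 4 (0.15 to 0.20 over the 8), and was not past it after a further quantile normalization, median centring or with array weights. REST, the repressor of neuronal genes, differed by 0.14 (adjusted p = 0.0512) and was past the test without suspended replicate 3 (0.17), after a further quantile normalization (0.17) and with low-signal genes left out. In all, 3 of 13 rose and 0 fell, against 10.4% and 10.2% of all genes. At an unadjusted p under 0.05 the counts were 4 and 0, where 3234 of all 18417 genes were higher and 2745 lower.

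STC2, the single paralogue of STC1, differed by -0.09 (adjusted p = 0.276), with 8.17 ± 0.10 in suspended and 8.27 ± 0.03 in attached cells (SD, n = 4 each). PAPPA, which encodes the protease that STC1 inhibits, differed by 0.01 (adjusted p = 0.894), and PAPPA2 by -0.16 (adjusted p = 0.142). The carriers that PAPP-A cuts were higher in suspension: IGFBP5 rose by 0.48 (adjusted p = 7.56e-05) and IGFBP4 by 0.28 (adjusted p = 0.00170). The receptor genes IGF2R and IGF1R rose by 0.39 and 0.32 (adjusted p = 6.44e-05 and 0.000413), while the ligand gene IGF1 differed by 0.15 (adjusted p = 0.153). In all, 4 of 8 rose and 0 fell, against 10.4% and 10.2% of all genes. At an unadjusted p under 0.05, 5 were higher and 1 lower, where 3234 of all 18417 genes were higher and 2745 lower. The list is short and no set test was run. The 4 that rose kept their call in each of the 8 refits that left out 1 array, and 1 gene fell without suspended replicate 3.

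The NIDO domain relatives of SNED1 included NID2, a basement membrane nidogen gene, which rose by 0.55 (SE 0.056, adjusted p = 4.02e-05), with 7.12 ± 0.09 in suspended and 6.58 ± 0.06 in attached cells (SD, n = 4 each). NID1, MUC4 and TECTA differed by 0.07, 0.12 and 0.03 and were not past the test. Among the integrins that bind the RGD motif, ITGB8 rose by 1.10 (adjusted p = 7.71e-08), while ITGB5 fell by 0.22 (adjusted p = 0.00541) and ITGB1 fell by 0.18 (adjusted p = 0.0365). ITGB1 lost its call without suspended replicate 1 or 4 or any 1 attached array, leaving 1 fall in the list, with differences of -0.22 to -0.15 over the 8 refits, and it was not past the test after a further quantile normalization (-0.12) or with array weights. In all, 2 of 14 rose and 2 fell, against 10.4% and 10.2% of all genes.

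SCARA3, a relative of SCARA5, rose by 0.42 (SE 0.053, adjusted p = 0.000197), with 9.08 ± 0.07 in suspended and 8.67 ± 0.06 in attached cells (SD, n = 4 each). MARCO, a scavenger receptor gene known from macrophages, rose by 0.21 (adjusted p = 0.0289), a call lost without suspended replicate 1, 3 or 4 or attached replicate 3 or 4 (0.17 to 0.25 over the 8 refits). MSR1 and COLEC12 differed by 0.11 and -0.01 and were not past the test. Beyond the family, FTL, which encodes the light chain of ferritin, rose by 0.39 (adjusted p = 0.000260), and so did the lysosomal SCARB2 (0.39, adjusted p = 0.000226). The lipoprotein receptor gene SCARB1 fell by 0.33 (adjusted p = 0.000539). The transferrin receptor gene TFRC, at -0.12, was not past the test (adjusted p = 0.101). In all, 4 of 18 rose and 1 fell, against 10.4% and 10.2% of all genes. The count that fell was 2 without suspended replicate 2 or 4.

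Among 13 measured carbonic anhydrases besides CA12, 2 rose and 0 fell, against 10.4% and 10.2% of all genes. The counts were the same at an unadjusted p under 0.05, where 3234 of all 18417 genes were higher and 2745 lower. CA1, CA5A, CA8 and CA10 averaged under 5.28 in both groups. CA11, which encodes a secreted form without enzyme activity, rose by 0.40 (SE 0.055, adjusted p = 0.000358), with 6.98 ± 0.10 in suspended and 6.58 ± 0.04 in attached cells (SD, n = 4 each). The mitochondrial CA5B rose by 0.30 (adjusted p = 0.0199), and was not past the test without suspended replicate 4 (0.26). The other 11 differed by -0.19 (CA13) to 0.12 (CA6), and CA6 was past the test without suspended replicate 4 (0.18). Of 10 measured bicarbonate and monocarboxylate transporters and their chaperone BSG, 0 were past the test by limma, and SLC4A4, a bicarbonate cotransporter gene, was the only one at an unadjusted p under 0.05 (-0.16, adjusted p = 0.135). SLC4A8, another of them, was past the test without suspended replicate 3 (-0.18). CA9 is not analysed here.

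SEL1L, the paralogue of SEL1L3 that anchors the ubiquitin ligase of ER-associated degradation, rose by 0.22 (SE 0.069, adjusted p = 0.0414). It averaged 7.72 ± 0.12 in suspended and 7.50 ± 0.10 in attached cells (SD, n = 4 each), and kept the call in 1 of the 8 refits, that without suspended replicate 4 (0.17 to 0.26). It was not past the test either once each array was centred on its median (0.20). SEL1L2 differed by 0.04 (adjusted p = 0.588). Of the degradation genes, EDEM3, which trims mannose from misfolded glycoproteins, rose by 0.46 (adjusted p = 5.62e-05) and the lectin gene OS9 by 0.26 (adjusted p = 0.00131). AUP1, a lipid droplet and degradation gene, fell by 0.14 (adjusted p = 0.0492), a call kept in 1 of the 8 refits, that without attached replicate 1 (-0.16 to -0.13), and 0 fell in the other refits or after a further quantile normalization. In all, 3 of 15 rose and 1 fell, against 10.4% and 10.2% of all genes, and after a further quantile normalization 5 rose.

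The 7 genes lie on 5 chromosomes, and the nearest tested protein-coding genes on either side, 2 a side in RefSeq order, were examined for each. Of these 28 neighbours 4 rose and 1 fell, against 10.4% and 10.2% of all genes, and their median difference was 0.06. SLC25A37, the mitochondrial iron importer gene near STC1, rose by 0.32 (adjusted p = 0.000427). The Notch effector gene RBPJ near SEL1L3 rose by 0.25 (adjusted p = 0.00852), but was not past the test with the mean of its probe sets (0.05). KCNE4, a potassium channel subunit gene next to SCG2, rose by 0.23 (adjusted p = 0.00989) and RAB8B, a vesicle transport GTPase gene near CA12, by 0.18 (adjusted p = 0.0139), a call lost with median centring (0.16). PBK, a mitotic kinase gene next to SCARA5, fell by 0.40 (adjusted p = 0.000835). CHIT1, which adjoins CHI3L1, differed by 0.11 (adjusted p = 0.336).

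**Figure D5:**
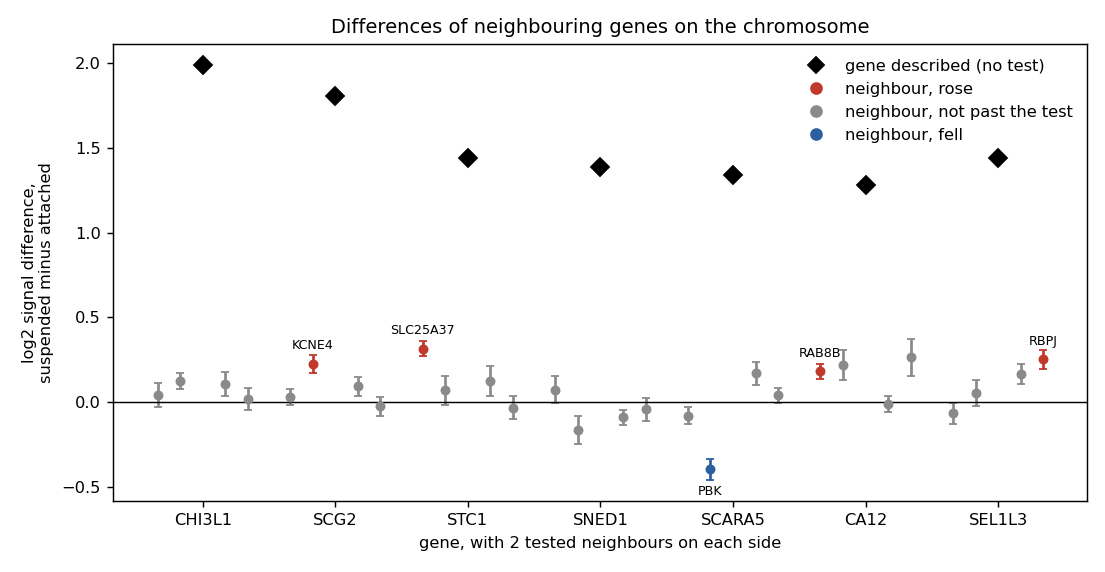
Log2 signal difference, suspended minus attached (y axis), of the 7 genes (black diamonds, no test) and of 2 tested neighbours on each side (circles in RefSeq order; red, rose; blue, fell; grey, not past the test; bars are the SE from limma). The neighbours lie between -0.40 (PBK) and 0.32 (SLC25A37).

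Markers of other cell types were read beside these values. Of 4 leukocyte markers, CD14 rose by 0.22 (adjusted p = 0.0467, a call kept in 1 of the 8 refits, that without suspended replicate 2, and lost with quantile normalization or median centring), and CD68, also a lysosomal protein of other cells, fell by 0.39 (adjusted p = 9.13e-05). Their summed linear signal was 357 to 385 in suspended and 435 to 458 in attached arrays. CD68 weighs most in this sum, with means of 8.03 in suspended and 8.42 in attached cells (log2). ITGAM differed by -0.08 and was not past the test (adjusted p = 0.457). PTPRC, the defining leukocyte gene, averaged 3.94 in both groups, below the 25th percentile of gene means. Of 3 endothelial markers 0 were past the test by limma or at an unadjusted p under 0.05, with a summed linear signal of 98.0 to 110 in suspended and 97.8 to 104 in attached arrays. Their part in the results was not tested.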

How the data were processed

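Total RNA of 4 suspended and 4 attached BT549 cultures was measured on gene-level arrays. Per the labels, the RNA was labelled with a FlashTag kit, a type usual for small-RNA arrays, so how it was labelled for these arrays is uncertain. The deposited values are log2 signals per probe set, a scale inferred from their size. Per the submitters' processing notes the authors used Partek, with its version, background correction and normalization not given in the sources used here. The values were used as deposited. Of 33297 probe sets, 19460 carried 1 gene symbol in the platform annotation, 1754 several and 12083 none. The set with the highest mean stood for a gene with several (769 genes), which left 18417 genes. Gene IDs matched RefSeq (GRCh38.p14) for 19429 probe sets. The build behind the array is not stated, so positions are given only for RefSeq promoter windows.

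The contrast was fitted by limma 3.58.1 under R 4.3.3 (two-sided, no covariate, Benjamini-Hochberg over all genes, threshold 0.05), a pipeline tested on simulated data. Differences are suspended minus attached. Tables used Python 3.11.15. The 7 genes and all gene lists were chosen with earlier results of these data known. Named were the 7 genes, their family relatives, the 4 genes of smallest adjusted p in each list and those called where a direction held 5 or fewer, the 2 genes nearest in course, and the genes ranked around the 7. Chromosomal neighbours and markers were added outside that rule. The lists held 113 genes, of which 9 are not analysed here. Alternatives were a further quantile normalization, median centring, the replicate number as a block, array weights, a filter on low signal, the mean of probe sets and leaving out each array.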

Additional observations from a re-analysis of the deposited data

Results flagged for a closer look

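Among 65 genes, with 4 arrays in each group, 6 groups had 1 array far from the other 3, out of 130 groups examined. Chance flags about 1 in 20 such groups. Attached replicate 4 of SEL1L3 stood at 4.92, below 5.15 to 5.19 in the others. CHIT1 was 5.79 on suspended replicate 3, above 5.58 to 5.60. SCG3 was 3.54 on suspended replicate 1, above 3.35 to 3.38, and IGF2R was 9.51 on suspended replicate 4, above 9.45 to 9.46. On attached replicate 1, AUP1 was 8.56, below 8.65 to 8.66, and SEL1L was 7.36, below 7.54 to 7.57.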

How the results depend on the processing

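The differences of the 7 genes stayed within 1 SD of the replicates and kept their sign under all 14 alternatives, from 1.93 to 2.08 for CHI3L1 and from 1.22 to 1.32 for CA12. Genes called higher numbered 1910 and genes called lower 1877, with 1439 to 1971 and 1456 to 1781 when 1 array was left out. Median centring gave 1536 higher and 2074 lower (42.5% of calls higher, against 50.4% as deposited), and a further quantile normalization 2025 and 1689 (54.5%). Of the wider lists, 21 genes rose in all (18 to 22 without 1 array) and 4 fell (2 to 5 without 1 array). With a further quantile normalization 2 fell, and with the replicate number as a block 2 fell. The cause was not tested. Of 104 genes followed singly (relatives and list genes named in the text, chromosomal neighbours and markers), 9 lost their call under at least 1 alternative, 7 gained one and 0 reversed. No effect shared by same-numbered arrays was seen: their deviations from their group means correlated at -0.20 to 0.04. Arrays of unlike number correlated at -0.20 to 0.26. These values cannot show whether same-numbered cultures were run side by side. With the block 1505 genes were higher and 1517 lower, and CPE, ITGB1, MARCO, AUP1, RAB8B and CD14 were not past the test. Signal over background could not be assessed, which limits statements on SEL1L3 and other low signals.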

Other observations

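Markers of the mesenchymal state, read to check the identity of the line, moved in both directions. SPARC, a matrix glycoprotein gene, rose by 0.37 on the log2 scale (limma adjusted p = 0.000102), with 11.55 ± 0.03 in suspended and 11.17 ± 0.03 in attached cells (SD, n = 4 each). The transcription factor gene ZEB1 rose by 0.27 (adjusted p = 0.00240), with no overlap between the groups. CDH2, the neural cadherin gene, fell by 0.38 (adjusted p = 0.000104), with 8.56 ± 0.04 in suspended and 8.94 ± 0.03 in attached cells (SD, n = 4 each). FN1 (0.09) and VIM (-0.06) were not past the test.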
